A study of Mus musculus with 12 samples.

Results

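The 8 genes described here are Apobec1, Clec2i, Adam19, Clec12a, Tmem176a, Tmem176b, Lyz2 and Fyb, taken by symbol from the 31053 features of the count tables. They were picked because they were higher in GFP+ than in GFP- libraries of this series or because they are known to mark marrow-derived macrophages of the brain. The levels that chose them are those of the GFP+ and GFP- libraries, so the difference between these sorts is given as a description, without a test. Results of these data were known when the genes were picked. The choice did not use the route of dosing, the sex-linked transcripts of the cells or the blood cell types. These are compared with their error. Relatives of the 8 genes were listed with earlier results of these data known. They were tested on the same contrast of sorts, so their calls are not independent of the choice.

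Busulfan-conditioned C57BL/6J mice received lineage-negative hematopoietic stem/progenitor cells (HSPCs) from male donors, transduced with a lentiviral vector for GFP (LVV.GFP), by intravenous (i.v.) or intracerebroventricular (i.c.v.) infusion. All of these mice, of both routes, later received non-transduced total bone marrow i.v. The study's text calls every donor of the single-cell experiment male, while its methods state this for the transduced cells and give no sex for the marrow. CD45+ CD11b+ CX3CR1+ cells were sorted from the brains of 4 mice, 1 female and 1 male per route, into GFP+ microglia-like cells (MLCs) and GFP- endogenous microglia, 12 to 13 months after dosing per the study's methods, whereas the labels give an age of 22 to 28 weeks. The 8 treated libraries were set beside 4 libraries of treatment-naive C57BL/6J cells aged 8 to 12 weeks per the labels: a neuron sort, astrocytes, microglia and peripheral blood mononuclear cells (PBMCs), 1 library each and hence without replicate error. Each group of 1 route and 1 sort held 2 libraries. The kept cells held 8834903 to 16514209 unique molecular identifiers (UMIs) per GFP+ library, 4970758 to 8105755 per GFP- library and 987965 to 4804709 per naive library. Most cells of every treated library had at least 3 of the 10 microglia markers (59.5% to 75.9% of GFP+ cells and 93.1% to 96.6% of GFP- cells), as did 92.5% of naive microglia. In the neuron sort 96.2% of cells had at least 3 oligodendrocyte markers and 0.174% had 3 neuron markers, so it is called the neuron sort and not neurons. Between 2 and 42 cells of a library carried a barcode that another library also held.

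Resident microglia arise from yolk sac progenitors before birth and renew themselves in the brain. Monocytes and the macrophages that descend from HSPCs are made in the bone marrow, and when the niche is emptied by conditioning they can settle in the brain and take on much of the microglial program while keeping some genes of their origin. Several of the 8 genes are widely expressed in blood monocytes and dendritic cells. Apobec1 encodes a cytidine deaminase that edits C to U in Apob and other messenger RNAs. Clec12a encodes an inhibitory C-type lectin receptor of myeloid cells, and Clec2i a C-type lectin-like ligand of the NKR-P1 receptors of natural killer cells. Adam19 encodes a membrane metalloprotease known for shedding neuregulins. Tmem176a and Tmem176b encode membrane proteins related to the MS4A family and are known in dendritic cells. Lyz2 encodes lysozyme M, which cleaves bacterial cell walls and is a classical transcript of monocytes, macrophages and neutrophils. Fyb encodes an adaptor that links immune receptors to integrins.

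Of the 8 genes, Apobec1, Clec2i, Clec12a, Tmem176a and Tmem176b lie on chromosome 6, which holds 5.05% of the annotated protein-coding genes. In the GRCm38 annotation Apobec1 spans chr6:122577792-122602444 on the minus strand, Clec2i chr6:128887588-128898167 on the plus strand and Clec12a chr6:129342691-129365303 on the plus strand. Clec2i and Clec12a are thus neighbors within 0.48 Mb. Adam19 spans chr11:46055992-46147343 and Fyb chr15:6522853-6663313, both on the plus strand. Tmem176a (chr6:48840919-48847071, plus strand) and Tmem176b (chr6:48833818-48841496, minus strand) run head to head and their gene models share 578 bases. Lyz2 spans chr10:117277331-117282321 on the minus strand, and its close copy Lyz1 begins 5476 bases further on. The last 500 bases of the Lyz2 transcript, where 3-prime libraries place their reads, hold 451 windows of 50 bases, and 76 of these are also found in Lyz1, so reads of both genes cannot be fully told apart. For the other genes 0 of the 451 windows were found in another gene.

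The start regions of the head-to-head pair are shown because Tmem176a and Tmem176b had the most alike levels of the 8 genes across the 12 libraries. RefSeq promoter windows (GRCm38.p6, 250 bases before to 50 after a start) matched all 8 genes with 14 windows. The window of Tmem176a at chr6:48841233-48841532 on the plus strand and that of Tmem176b at chr6:48841325-48841624 on the minus strand are the same DNA over 208 bases, read from opposite strands. Capitals mark the motif AGGAAGT or its reverse complement ACTTCCT, a core of binding sites of ETS factors, the family of the myeloid regulator Spi1.
Tmem176a: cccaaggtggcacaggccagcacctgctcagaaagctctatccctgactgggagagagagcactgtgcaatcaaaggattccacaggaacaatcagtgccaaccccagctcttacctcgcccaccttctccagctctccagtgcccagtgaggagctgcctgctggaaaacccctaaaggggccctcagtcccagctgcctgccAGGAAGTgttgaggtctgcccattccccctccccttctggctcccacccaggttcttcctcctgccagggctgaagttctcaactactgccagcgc
Tmem176b: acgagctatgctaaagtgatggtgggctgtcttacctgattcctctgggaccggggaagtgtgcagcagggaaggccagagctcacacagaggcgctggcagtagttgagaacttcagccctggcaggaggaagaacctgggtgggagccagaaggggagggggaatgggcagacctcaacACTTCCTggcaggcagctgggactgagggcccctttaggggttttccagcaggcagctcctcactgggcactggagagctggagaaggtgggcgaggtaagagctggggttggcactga
Both windows hold the motif once, and it is the same site. It was found in 9.35% of the 32851 RefSeq windows and in 4 of the 14 windows of the 8 genes, namely both of Tmem176a, 1 of 3 of Tmem176b and that of Lyz2. The windows of the pair overlap and hold 1 site between them, so the 4 windows have 2 distinct sites. The shorter motif GAGGAA, or TTCCTC on the other strand, was found in 28.3% of all windows and in 6 of these 14. TGANTCA was found in 7.81% of all windows and in 2 of the 14, and TTGCNNAA, or its reverse complement, in 10.8% and 3. A match describes the letters of the window only.

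The windows of Lyz2 (chr10:117282223-117282522, minus strand) and Lyz1 (chr10:117292819-117293118, minus strand) are shown because both lysozyme genes occur in the blood comparison below, with the same motif in capitals.
Lyz2: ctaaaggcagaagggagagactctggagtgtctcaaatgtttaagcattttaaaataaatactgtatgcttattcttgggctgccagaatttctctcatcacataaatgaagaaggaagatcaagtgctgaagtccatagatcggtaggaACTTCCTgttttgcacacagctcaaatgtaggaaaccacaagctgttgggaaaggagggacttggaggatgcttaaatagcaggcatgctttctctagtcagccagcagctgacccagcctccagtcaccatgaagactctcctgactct
Lyz1: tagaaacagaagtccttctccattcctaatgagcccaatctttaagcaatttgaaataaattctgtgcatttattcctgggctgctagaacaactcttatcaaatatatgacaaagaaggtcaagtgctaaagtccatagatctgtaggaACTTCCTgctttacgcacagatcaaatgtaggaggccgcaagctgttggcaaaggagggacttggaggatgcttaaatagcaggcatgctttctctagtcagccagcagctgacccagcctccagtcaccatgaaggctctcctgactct
The aligned windows were identical at 249 of 302 positions (82.5%), and each held the motif once.

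Levels are given as counts scaled to library size (CPM), which is the UMIs of a gene summed over the kept cells of a library and scaled to the same total of UMIs in every library. A library's CPM does not tell more cells with a transcript from more transcript per cell. The gene of middle rank had a log2 ratio of -0.28 between mean CPM of the GFP+ and the GFP- libraries, and CPM ratios are to be read against this shift. The 4 GFP+ libraries all lay above the 4 GFP- libraries for 6 of the 8 genes, where 6.06% of the 12539 genes tested did so. The genes were chosen on this contrast, so nothing is read from that count.

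Among the membrane receptors and ligands, Clec12a had the wider spread. Its level in GFP+ MLCs was 333 CPM in the i.v. female, 361 in the i.v. male, 259 in the i.c.v. female and 376 in the i.c.v. male. In GFP- microglia of the same mice it was 45.7, 72.9, 193 and 109 CPM. The sorts did not overlap, but the i.c.v. female GFP- library came within 1.34-fold of its GFP+ counterpart, while the difference was 7.28-fold in the i.v. female. Clec2i was at 37.7 and 30.2 CPM in the GFP+ libraries of the i.v. female and male and at 31.9 and 34.3 in those of the i.c.v. female and male. In the GFP- libraries it was at 4.02 and 6.44 CPM after i.v. dosing and at 16.7 and 9.39 after i.c.v. dosing, from 20 to 135 UMIs per library. The GFP+ levels of Clec2i varied by 9.65% of their mean (coefficient of variation over 4 libraries) and the GFP- levels by 60.0%.

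Apobec1 and Adam19, the intracellular deaminase and the membrane protease, were also separated between the sorts. Apobec1 was at 227, 204, 216 and 237 CPM in the GFP+ libraries (i.v. female, i.v. male, i.c.v. female, i.c.v. male) and at 78.1, 82.3, 122 and 105 CPM in the GFP- libraries. Its GFP+ mean of 221 ± 14.1 CPM (SD, n = 4) varied by 6.38%, the narrowest spread of the 8 genes in that sort. Adam19 was the lowest of the group, with 19.1, 22.8, 15.5 and 21.7 CPM in GFP+ and 3.62, 3.37, 8.02 and 6.56 CPM in GFP- libraries, the latter from 18 to 65 UMIs. The highest GFP- value of Adam19 and the lowest GFP+ value came from the same mouse, the i.c.v. female.

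Tmem176a and Tmem176b, the pair of membrane proteins, followed each other closely. Tmem176a was at 1014, 848, 756 and 993 CPM in GFP+ libraries and at 361, 267, 477 and 407 CPM in GFP- libraries, in the same order of mice. Tmem176b was at 1246, 1155, 1062 and 1274 CPM in GFP+ and at 439, 438, 646 and 571 CPM in GFP- libraries. For both genes the i.c.v. female had the lowest GFP+ and the highest GFP- level. Naive microglia held 375.5 CPM of Tmem176a and 636 of Tmem176b, within or near the GFP- range, and these were the only 2 of the 8 genes with over 100 CPM in astrocytes (119.5 CPM for Tmem176a and 202.5 for Tmem176b).

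Lyz2 and Fyb did not separate the sorts. Lyz2, the secreted lysozyme, was at 9036, 5558, 2902 and 5482 CPM in GFP+ libraries and at 2176, 1516, 3610 and 2572 CPM in GFP- libraries, so that it was lower in GFP+ than in GFP- cells in the i.c.v. female. Fyb, the adaptor, was at 576, 644, 722 and 788 CPM in GFP+ and at 643, 718, 684 and 681 CPM in GFP- libraries. Its means of 682 ± 92.4 and 681 ± 30.6 CPM (SD, n = 4 each) were alike, whereas after scaling by the trimmed mean of M-values (TMM), which leaves out the genes with the most extreme ratios, its log2 ratio was between 0.19 and 0.44 in every mouse. The level of Fyb in naive microglia was 389 CPM, below all 8 treated libraries. The GFP- means of the other genes lay between 0.82-fold (Tmem176b) and 2.18-fold (Apobec1) of the level in naive microglia, and their GFP+ means between 1.86-fold (Tmem176b) and 4.96-fold (Apobec1). The naive microglia library had a median of 425 UMIs per cell and 9238 CPM of neutrophil markers, against 344 to 6043 CPM in GFP- libraries, and the part of this in these folds was not tested.

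**Figure D1:**
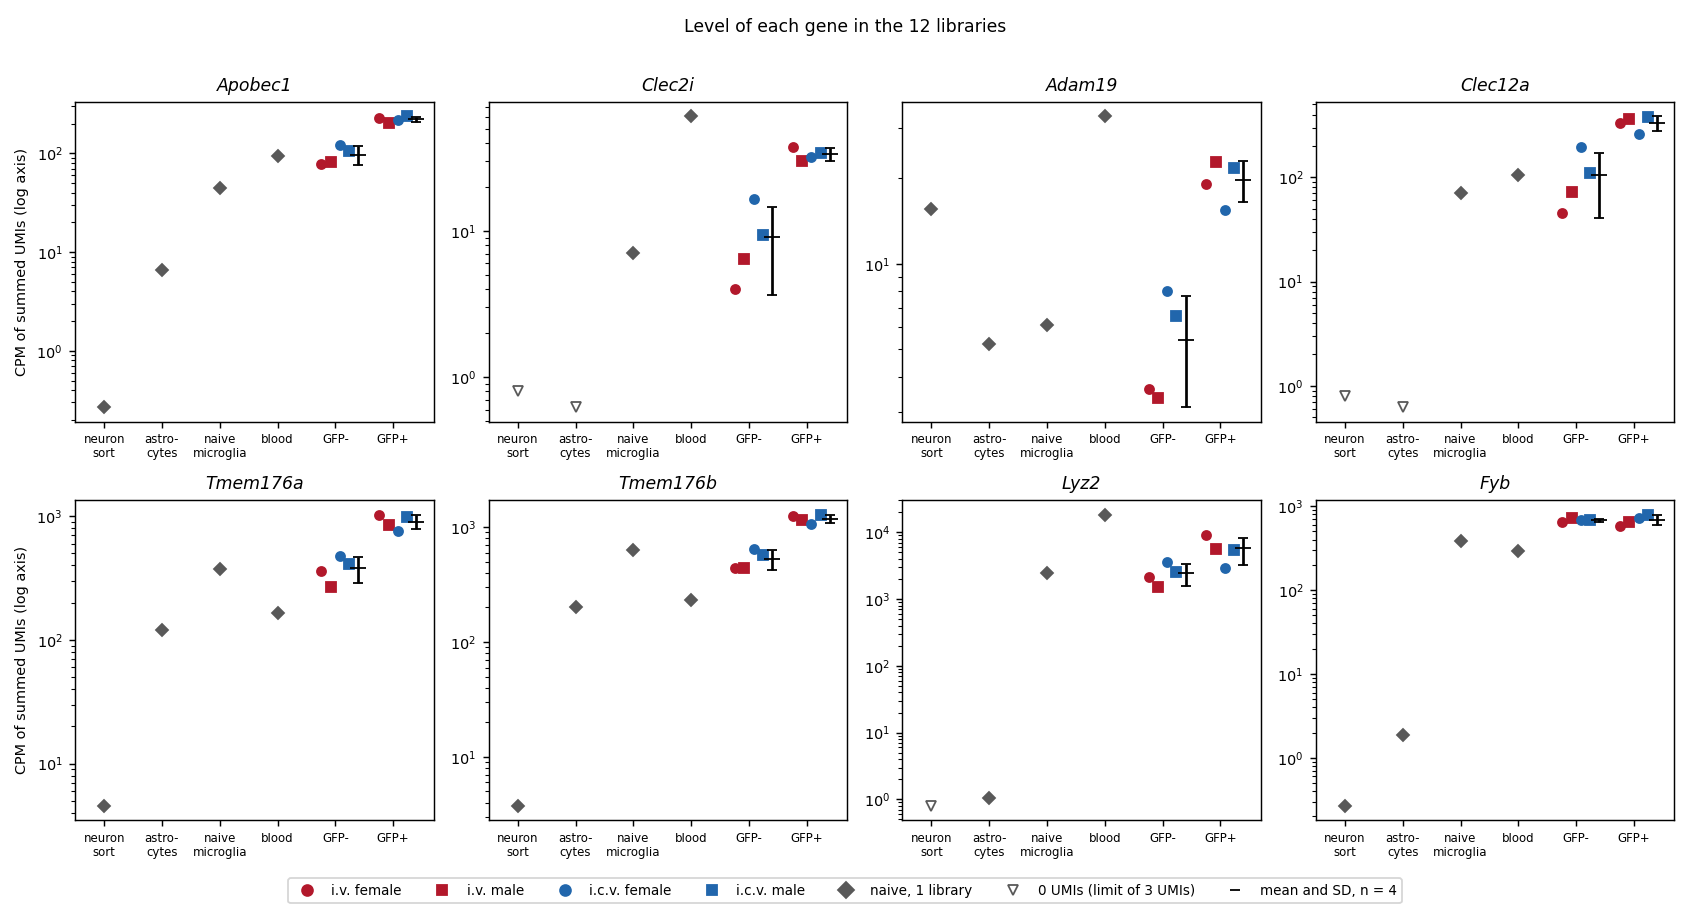
CPM of summed UMIs of each gene (log axis) in the 12 libraries, with a point per library and the mean and SD of the 4 GFP- and the 4 GFP+ libraries. The sorts do not overlap for 6 genes, while Lyz2 (1516 to 3610 CPM in GFP- and 2902 to 9036 in GFP+) and Fyb overlap, and an open triangle marks the limit of 3 UMIs where a library held none.

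Within a mouse, the ratio of GFP+ to GFP- cells was above 1 in all 4 mice for the 6 genes that separated the sorts, in 3 of 4 for Lyz2 and in 2 of 4 for Fyb. The mean log2 ratio over the 4 mice was 2.07 ± 0.95 (SD) for Clec2i, 1.96 ± 0.80 for Adam19 and 1.84 ± 1.05 for Clec12a. It was 1.28 ± 0.44 for Tmem176a, 1.21 ± 0.30 for Apobec1, 1.20 ± 0.35 for Tmem176b and 1.18 ± 1.08 for Lyz2. Apart from Fyb, the i.c.v. female had the smallest ratio for every one of these genes and the i.c.v. male the next. The i.v.-dosed mice had the larger ratios, up to 9.36-fold for Clec2i in the female.

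**Figure D2:**
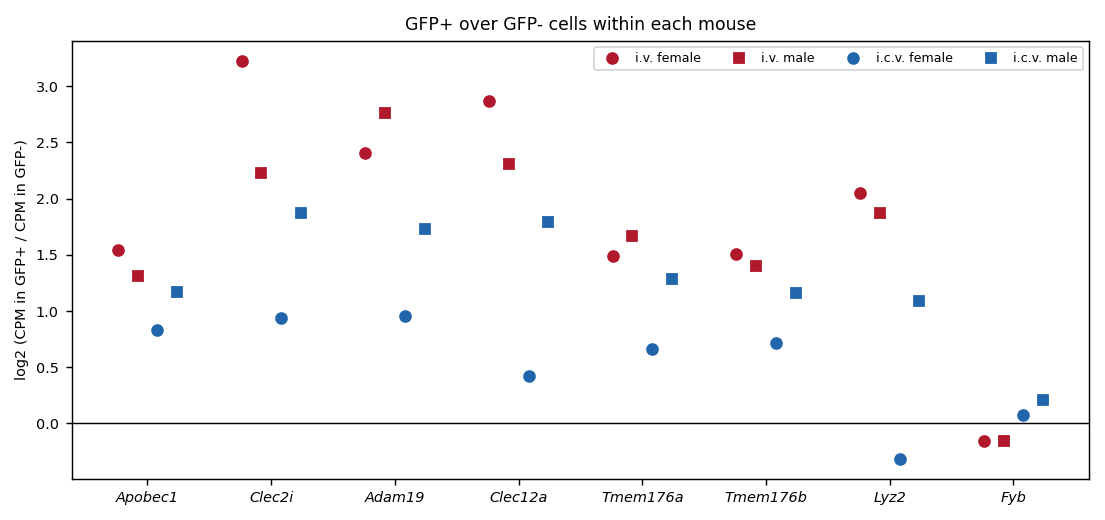
Log2 of the CPM in GFP+ over the CPM in GFP- cells of the same mouse, per gene, with a point per mouse colored by route. For all genes but Fyb both i.v. mice lie above both i.c.v. mice, and Lyz2 is at -0.31 in the i.c.v. female.

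With every cell reduced to 500 UMIs, Apobec1 was detected in 12.5% ± 0.62 of GFP+ cells and 4.27% ± 1.07 of GFP- cells (SD over 4 libraries each), and Clec12a in 14.2% ± 3.30 and 3.33% ± 2.72. Tmem176b was detected in 31.3% ± 4.90 and 14.1% ± 3.38, and Lyz2 in 55.6% ± 13.5 and 34.6% ± 12.9. Clec2i and Adam19 were found in 1.74% ± 0.091 and 1.69% ± 0.22 of GFP+ cells and in 0.32% ± 0.21 and 0.25% ± 0.16 of GFP- cells, so single cells mostly lack a UMI of them at this depth. Fyb, whose mean levels were alike, was detected in 31.8% to 41.05% of GFP+ and 28.85% to 30.8% of GFP- cells at 500 UMIs, without overlap. At 1000 UMIs per cell the shares overlapped (50.5% ± 5.48 and 51.7% ± 1.81). The shares at 1000 UMIs rest only on cells with that depth, 1412 of 2675 GFP- and 2561 of 3344 GFP+ cells in the i.v. female. The set of cells thus changed together with the depth. At their own depth 9.28% of GFP+ cells had a UMI of Clec2i and 41.5% one of Apobec1, and Clec12a was detected in 42.9% of GFP+ and 8.06% of GFP- cells. In astrocytes, which should lack myeloid transcripts, 1 of 1146 cells had a UMI of Lyz2 (0.087%) and 4 one of Apobec1 (0.349%) at 500 UMIs, from a median depth of 3395 UMIs. The number of the 8 genes detected per cell averaged 1.96, 1.79, 1.49 and 2.01 in the GFP+ libraries (i.v. female, i.v. male, i.c.v. female, i.c.v. male), 0.78, 0.83, 1.28 and 1.03 in the GFP- libraries and 1.04 in blood. At least 4 of the 8 were detected in 4.01% to 9.03% of GFP+ cells and in 0.48% to 1.98% of GFP- cells.

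Tmem176b was detected more often in cells with Tmem176a than in cells without it. In the i.v. female, 49.0% of the GFP+ cells with Tmem176a had Tmem176b (95% exact interval 46.0 to 52.1) against 30.4% of those without (28.5 to 32.3). In the other GFP+ libraries the pair of shares was 45.3% and 24.1% in the i.v. male, 38.2% and 22.2% in the i.c.v. female, and 42.3% and 30.9% in the i.c.v. male. The GFP- libraries had 16.0% to 23.5% against 10.2% to 17.2%, again with the higher share in cells with Tmem176a. This was not particular to the pair, since Lyz2 too was detected more often in cells with Tmem176a in all 8 treated libraries, in 75.7% against 61.2% of GFP+ cells of the i.v. female, 70.9% against 49.9% in the i.v. male, 46.7% against 34.0% in the i.c.v. female and 71.6% against 62.2% in the i.c.v. male. Fyb was detected less often in GFP+ cells with Tmem176a, in 24.5% to 34.95% against 35.2% to 42.7% of those without. These shares were taken at 500 UMIs per cell and their intervals cover counting error only.

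Blood was the reference for a marrow origin. In PBMCs of the naive mouse the level was 93.1 CPM for Apobec1, 60.8 for Clec2i, 33.1 for Adam19, 105 for Clec12a, 166 for Tmem176a, 230.0 for Tmem176b, 18277 for Lyz2 and 291.5 for Fyb. Lyz2, Clec2i and Adam19 were thus higher in blood than in the mean of the GFP+ libraries, by 3.18-fold, 1.81-fold and 1.67-fold, and blood was above every GFP+ library for each. The other 5 were higher in GFP+ MLCs than in blood, Tmem176a by 5.43-fold, Tmem176b by 5.15-fold, Clec12a by 3.15-fold, Apobec1 by 2.37-fold and Fyb by 2.34-fold. The neuron sort held 0 UMIs of Clec2i, Clec12a and Lyz2 of 3716575, which allows up to 0.807 CPM, and 58 UMIs of Adam19 (15.6 CPM). All blood values come from 1 library, with no replicate, and 1 library cannot give a test.

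Blood cells were split by markers into monocyte (127 cells), B cell (112), neutrophil (27), T or NK cell (13), erythroid (12) and dendritic cell (10) classes, each with at least 3 markers of its own list and fewer of every other. Blood monocytes held 249 CPM of Clec12a (95% Poisson interval 217 to 283) and B cells 13.4 CPM (6.90 to 23.3). Apobec1 was at 146 CPM (122 to 173) in monocytes, below the GFP+ range of 204 to 237, and at 65.7 (49.98 to 84.7) in B cells. Clec2i was at 93.1 CPM (74.4 to 115) in monocytes, 56.8 (42.3 to 74.6) in B cells and 97.4 (31.6 to 227) in T or NK cells, all at or above the GFP+ range of 30.2 to 37.7.

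Adam19 was highest in the neutrophil class with 251 CPM (125 to 449, 11 UMIs) and at 23.0 (14.2 to 35.2) in monocytes. Tmem176a was at 733 CPM (590 to 900) and Tmem176b at 708 (568 to 873) in the dendritic cell class, against 95.3 (76.3 to 118) and 204 (175.5 to 235) in monocytes, so blood monocytes lay below every GFP- library of the brain for both. Lyz2 was at 25840 CPM in monocytes and 4036 in B cells, and Lyz1 was at 566 CPM in whole blood but at 0.91 to 22.5 in GFP+ libraries. Fyb was at 603 CPM (553 to 655) in monocytes and 35.6 (24.4 to 50.3) in B cells. The T or NK cell class held 58.4 CPM of Lyz2 (12.1 to 171, 3 UMIs), while the erythroid class held 36150, above the monocytes, so a marker class of this library is not a pure cell type.

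**Figure D3:**
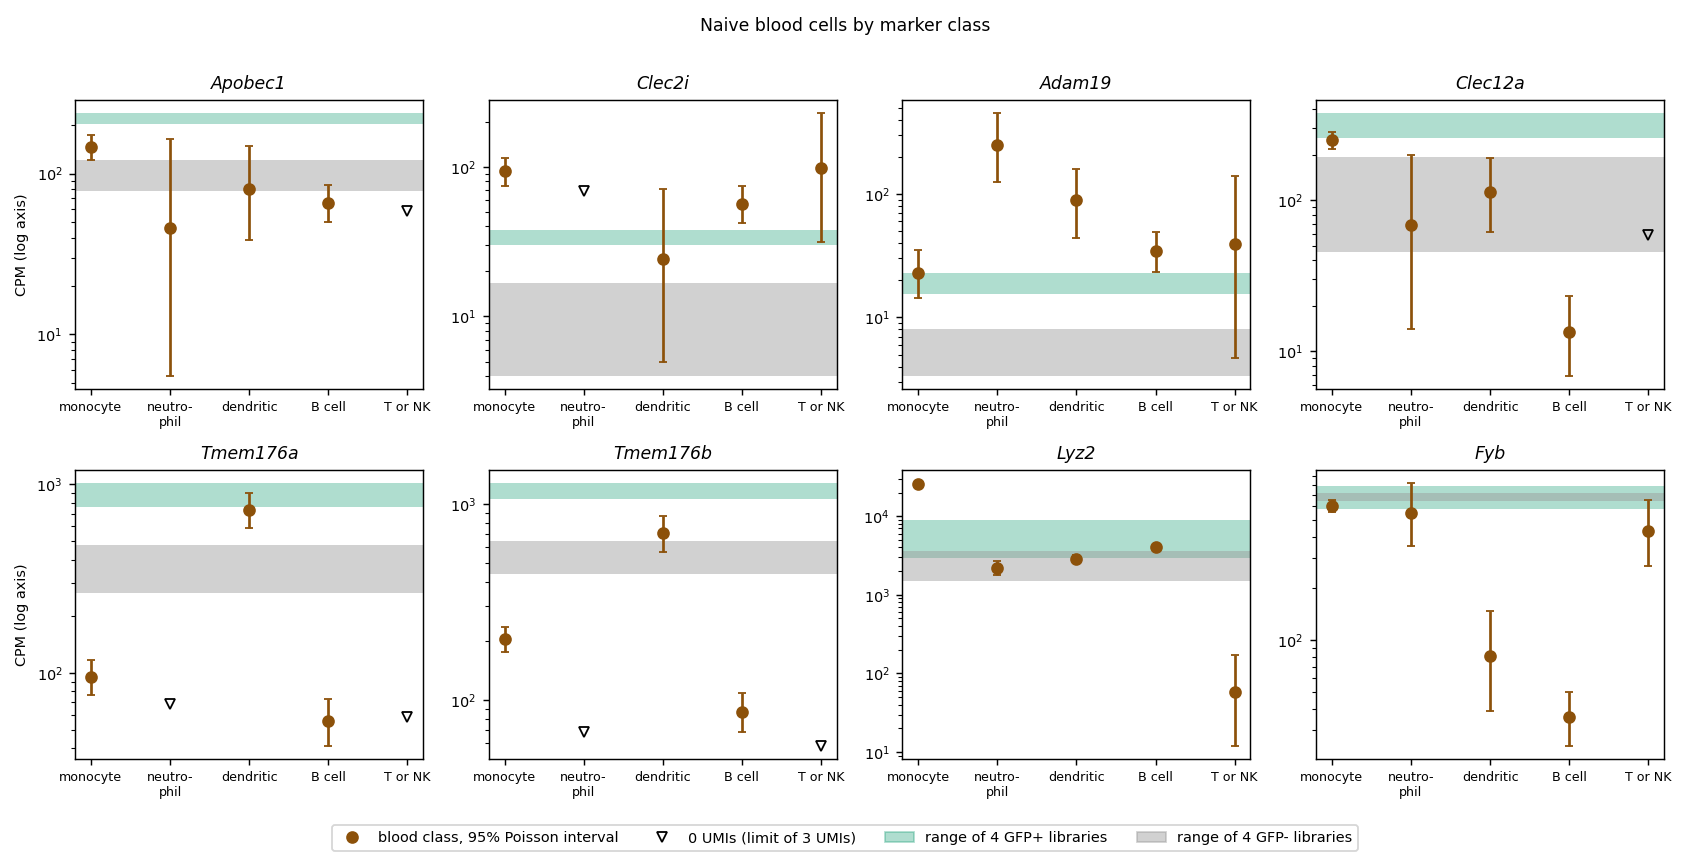
CPM of each gene (log axis) in 5 marker classes of the naive blood library with 95% Poisson intervals, and the range of the 4 GFP+ (green) and the 4 GFP- (gray) libraries as bands. Monocytes lie between or near the bands for Clec12a (249 CPM) and Apobec1 (146 CPM), above them for Lyz2, and below both for Tmem176a and Tmem176b.

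Whether cells that migrated from the periphery after i.v. dosing differ from cells placed in the ventricle was addressed by comparing routes within a sort. In GFP+ MLCs none of the 8 genes was called between routes in the edgeR quasi-likelihood test, where 321 of 12539 genes (2.56%) were called higher after i.v. dosing and 26 (0.207%) lower. Only Lyz2 had an unadjusted p under 0.05 (log2 difference 0.90, SE 0.37, adjusted p = 0.278), where 16.5% of genes had one in either direction, and DESeq2 called none of the 8. The Lyz2 difference was 0.48 without the i.c.v. female, 0.51 without the i.v. female and 1.47 without the i.c.v. male GFP+ library. Both i.v. libraries lay above both i.c.v. libraries for Lyz2 alone of the 8 genes, where 16.4% of genes did so. For the other 7 genes the log2 difference was between -0.20 and 0.27, with 95% intervals that reached from -0.29 to 0.36 for Apobec1, -0.45 to 0.74 for Clec2i, -0.23 to 0.76 for Adam19 and -0.50 to 0.96 for Clec12a. For Tmem176a the interval was -0.31 to 0.70, for Tmem176b -0.22 to 0.51 and for Fyb -0.52 to 0.12. The sign of the Apobec1 difference depended on the scaling, since the mean CPM was 0.95-fold in i.v. against i.c.v. libraries while the fit after TMM gave 0.04.

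In GFP- microglia 7 of the 8 genes, all but Fyb, were lower after i.v. than after i.c.v. dosing in both mice against both mice, where 13.1% of the 12539 genes tested were. The same 7 had an unadjusted p under 0.05 in this direction, where 5.93% of genes did, but none was called after adjustment by edgeR, which called 0 genes here (1064 at an unadjusted p under 0.05). Clec12a differed by -1.47 on the log2 scale (SE 0.33, adjusted p = 0.388), Clec2i by -1.41 (SE 0.33, adjusted p = 0.388) and Adam19 by -1.18 (SE 0.29, adjusted p = 0.411). Lyz2 differed by -0.86 (SE 0.37), Apobec1 by -0.62 (SE 0.15), Tmem176a by -0.60 (SE 0.22) and Tmem176b by -0.59 (SE 0.16), with adjusted p between 0.388 and 0.585. DESeq2 called 68 genes, and among them Clec12a (adjusted p = 0.000392) and Clec2i (adjusted p = 0.0233), and edgeR without the filter on low counts called 83, with the same 2 members among them (adjusted p = 0.0159 and 0.0328). Over all alternatives the adjusted p ran from 0.000392 to 1.0 for Clec12a and from 0.0233 to 1.0 for Clec2i, the highest without the i.c.v. female GFP- library, where the log2 differences were -0.97 and -0.91. These 4 libraries also enter the sort comparison. In each group, route goes with 1 female and 1 male mouse. Malat1 also moved with the route, at 71340 and 56500 CPM in GFP- libraries after i.v. and at 49210 and 52870 after i.c.v. dosing. In GFP+ libraries it was at 34230 to 40350 CPM. The part of what moved Malat1 in the differences of the 8 genes was not tested.

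**Figure D4:**
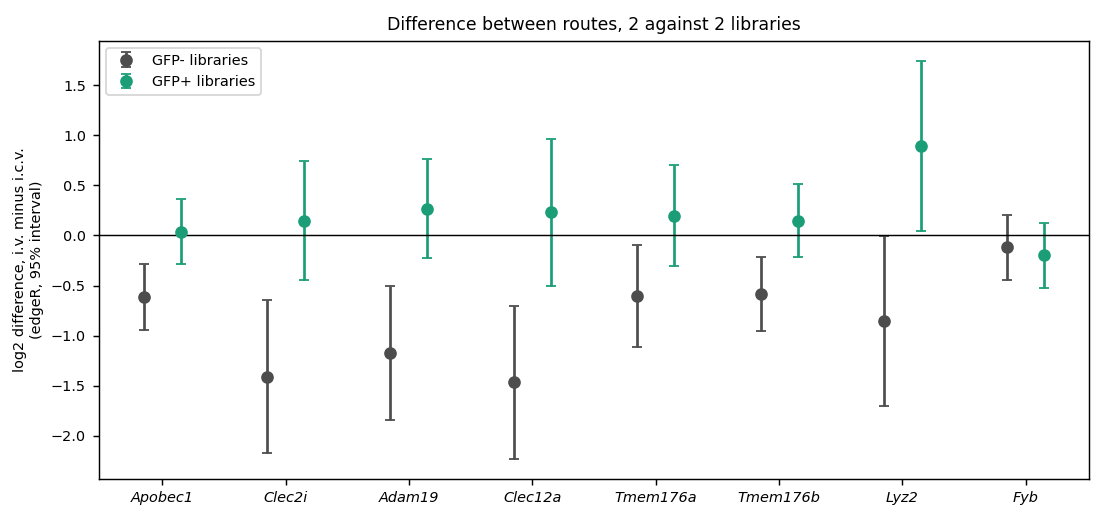
Log2 difference between routes (i.v. minus i.c.v.) with 95% intervals from the edgeR fit, for each gene in the 4 GFP- and the 4 GFP+ libraries. In GFP- libraries the intervals of 7 genes lie below 0 before adjustment over all genes, and in GFP+ libraries those of 7 genes include 0.

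The sort difference itself was therefore compared between routes. The interaction of sort and route was positive for 7 of the 8 genes, which means a larger difference of GFP+ over GFP- cells after i.v. dosing. It was 1.75 (SE 0.53) for Lyz2, 1.70 (SE 0.46) for Clec12a, 1.555 (SE 0.42) for Clec2i and 1.44 (SE 0.36) for Adam19. It was 0.80 (SE 0.31) for Tmem176a, 0.73 (SE 0.23) for Tmem176b, 0.65 (SE 0.20) for Apobec1 and -0.08 (SE 0.20) for Fyb. The 7 had an unadjusted p under 0.05, where 11.9% of the 12539 genes did in this direction, and none was called by edgeR (adjusted p from 0.0902 to 0.233), which called 228 genes higher (1.82%) and 14 lower (0.112%). With the mouse as a replicate block 607 genes were called higher and 69 lower, again none of the 8, and the lowest adjusted p was 0.0586. DESeq2 called Clec12a (adjusted p = 0.00156) and Clec2i (adjusted p = 0.0264). This interaction is the difference of both route comparisons above and adds no separate evidence.

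Markers of other cell types moved with the route as well. Cells with at least 3 of the 8 markers of CNS-associated macrophages (CAMs) were 3.89% and 4.94% of GFP- cells after i.v. dosing and 13.1% and 9.03% after i.c.v. dosing, with all 8 markers detected in each library. Their summed level was 881 and 1223 CPM after i.v. and 1591 and 1310 CPM after i.c.v. dosing. In GFP+ libraries such cells were 48.2% and 37.6% after i.v. and 33.8% and 39.2% after i.c.v. dosing, with 2021 to 2669 CPM, so CAM markers moved with the sort, and their part in the sort differences of the 8 genes was not tested. Neutrophil markers summed to 515 and 344 CPM in GFP- libraries after i.v. and to 6043 and 1186 after i.c.v. dosing, and to 1674 and 3311 against 112 and 120 in GFP+ libraries, where 3 of the 9 markers were detected in each i.c.v. library. Monocyte markers summed to 34.2 and 23.9 CPM in GFP- libraries after i.v. and to 158 and 43.5 after i.c.v. dosing, and to 297 and 206 against 18.8 and 17.3 CPM in GFP+ libraries. Cells with at least 3 dendritic cell markers were 6.64% and 5.91% of GFP+ cells after i.v. against 1.41% and 1.64% after i.c.v. dosing, and 0.60% and 0.42% against 0.87% and 0.93% of GFP- cells. The dendritic cell list shares Siglech with the microglia list. All these shares were taken at each library's own depth. Median UMIs per cell were 3498.5 and 1307.5 in the i.v. female and male GFP+ libraries, 1058 and 1060.5 in the i.c.v. ones and 842 to 1034 in GFP- libraries. The part of depth in the shares was not tested. Within cells of the microglia class alone, an alternative added after the data were seen, the log2 route difference in GFP- libraries was -1.61 for Clec12a, -1.46 for Clec2i, -1.03 for Adam19, -0.96 for Lyz2 and -0.67 for Apobec1, Tmem176a and Tmem176b each. The same 7 genes had an unadjusted p under 0.05 in edgeR, where 1023 of 11871 genes had one in either direction. In this setting 0 genes were called after adjustment, and the lowest adjusted p of the 8 genes was 0.410. Without cells of the monocyte, neutrophil, lymphoid, dendritic, erythroid and non-myeloid lists it was -1.60 for Clec12a, -1.53 for Clec2i, -1.15 for Adam19, -0.86 for Lyz2 and between -0.63 and -0.67 for the other three.

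Sex-linked transcripts gave a second view of cell origin in females, since the transduced HSPCs came from males. The choice of the 8 genes did not use it, although a cell without a sex-linked UMI cannot be placed. In the i.v. female GFP- library, 40 of 2675 cells had a Y-linked UMI and no Xist, and 2338 had Xist and no Y-linked UMI. The 40 cells held 268 CPM of Clec12a (95% Poisson interval 208 to 340), 32.0 of Clec2i (13.8 to 63.1, 8 UMIs), 9888 of Lyz2 and 636 of Tmem176a. The 2338 cells held 26.2 CPM of Clec12a (21.5 to 31.6), 2.38 of Clec2i (1.14 to 4.38), 1508 of Lyz2 and 325 of Tmem176a. Apobec1 was at 88.0 (55.2 to 133) and 80.1 CPM (71.7 to 89.1), with overlapping intervals, and Fyb was lower in the 40 cells, 268 (208 to 340) against 689 (664 to 715). P2ry12, a microglial purinergic receptor, was at 152 CPM in the 40 cells and 1464 in the others.

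In the GFP+ library of the same mouse 88 of 3344 cells had Xist and no Y-linked UMI, and these held 73.2 CPM of Clec12a (51.2 to 101), 75.2 of Apobec1 (52.9 to 104), 8.13 of Clec2i (2.22 to 20.8) and 1165 of P2ry12. The 1670 cells with a Y-linked UMI and no Xist held 346 CPM of Clec12a (335 to 358), 227.5 of Apobec1 (219 to 237), 37.1 of Clec2i (33.6 to 40.9) and 278 of P2ry12. The intervals of these 3 genes did not overlap between the classes, while those of Adam19 did (14.2, 5.72 to 29.3, against 18.1, 15.7 to 20.8). Within the GFP+ sort of this mouse, cells with the transcript of the recipient's sex thus held lower levels of Clec12a, Apobec1 and Clec2i.

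In the i.c.v. female GFP- library 47 of 4355 cells had a Y-linked UMI and no Xist, with 319 CPM of Clec12a (229 to 433), 77.9 of Clec2i (37.3 to 143) and 195 of Apobec1 (126 to 287). The 2852 cells with Xist and no Y-linked UMI held 200.1 CPM of Clec12a (189.5 to 211), 16.8 of Clec2i (13.9 to 20.3), 126 of Apobec1 (118 to 135) and 803 of P2ry12. In its GFP+ library 27 of 2621 cells had Xist alone, with 10650 CPM of Lyz2 (10150 to 11160) and 165 of P2ry12, against 2821 and 543 in the 1294 cells with a Y-linked UMI alone. Clec12a was at 135 CPM (84.5 to 204) in the 27 cells and 246 (234 to 258) in the 1294, and Apobec1 at 79.6 (42.4 to 136) and 209 (198 to 221). Clec2i was at 42.9 (17.2 to 88.4) and 30.6 CPM (26.5 to 35.25), with overlapping intervals. Clec12a and Apobec1 were thus lower in the cells with Xist alone, as in the i.v. female, and P2ry12 was lower too, unlike there.

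In male recipients Xist is expected from no cell if every donor was male, as the study's text states, yet cells with Xist alone were found. In the i.c.v. male GFP- library, 107 of 4087 cells (2.62%) had Xist and no Y-linked UMI. They held 331 CPM of Clec12a (280 to 388), 182 of Apobec1 (145 to 226), 46.0 of Clec2i (28.5 to 70.4), 24.1 of Adam19 (12.0 to 43.1) and 829 of Tmem176a (747 to 916), and 452 CPM of P2ry12. The values of Clec12a and Tmem176a lay within the range of the GFP+ libraries. That of Apobec1 lay below it and those of Clec2i and Adam19 above it, but the intervals of Apobec1, Clec2i and Adam19 overlapped the range. The 1395 cells with a Y-linked UMI alone held 108.5 CPM of Clec12a (98.8 to 119), 101 of Apobec1 (92.1 to 112), 7.30 of Clec2i (4.96 to 10.4), 5.88 of Adam19 (3.81 to 8.69), 433 of Tmem176a and 1579 of P2ry12. In the i.v. male GFP- library 18 of 4555 cells had Xist alone, with 242 CPM of Clec12a (148 to 374). In the GFP+ libraries of the males 0 of 2266 and 1 of 3536 cells had Xist alone. Leaving out the cells with transcripts of the other sex from the GFP- libraries, added after the data were seen, left the route difference in these libraries at -1.57 for Clec12a, -1.47 for Clec2i and -0.59 for Apobec1. No test is given for these classes, since the cells of a class come from 1 library.

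**Figure D5:**
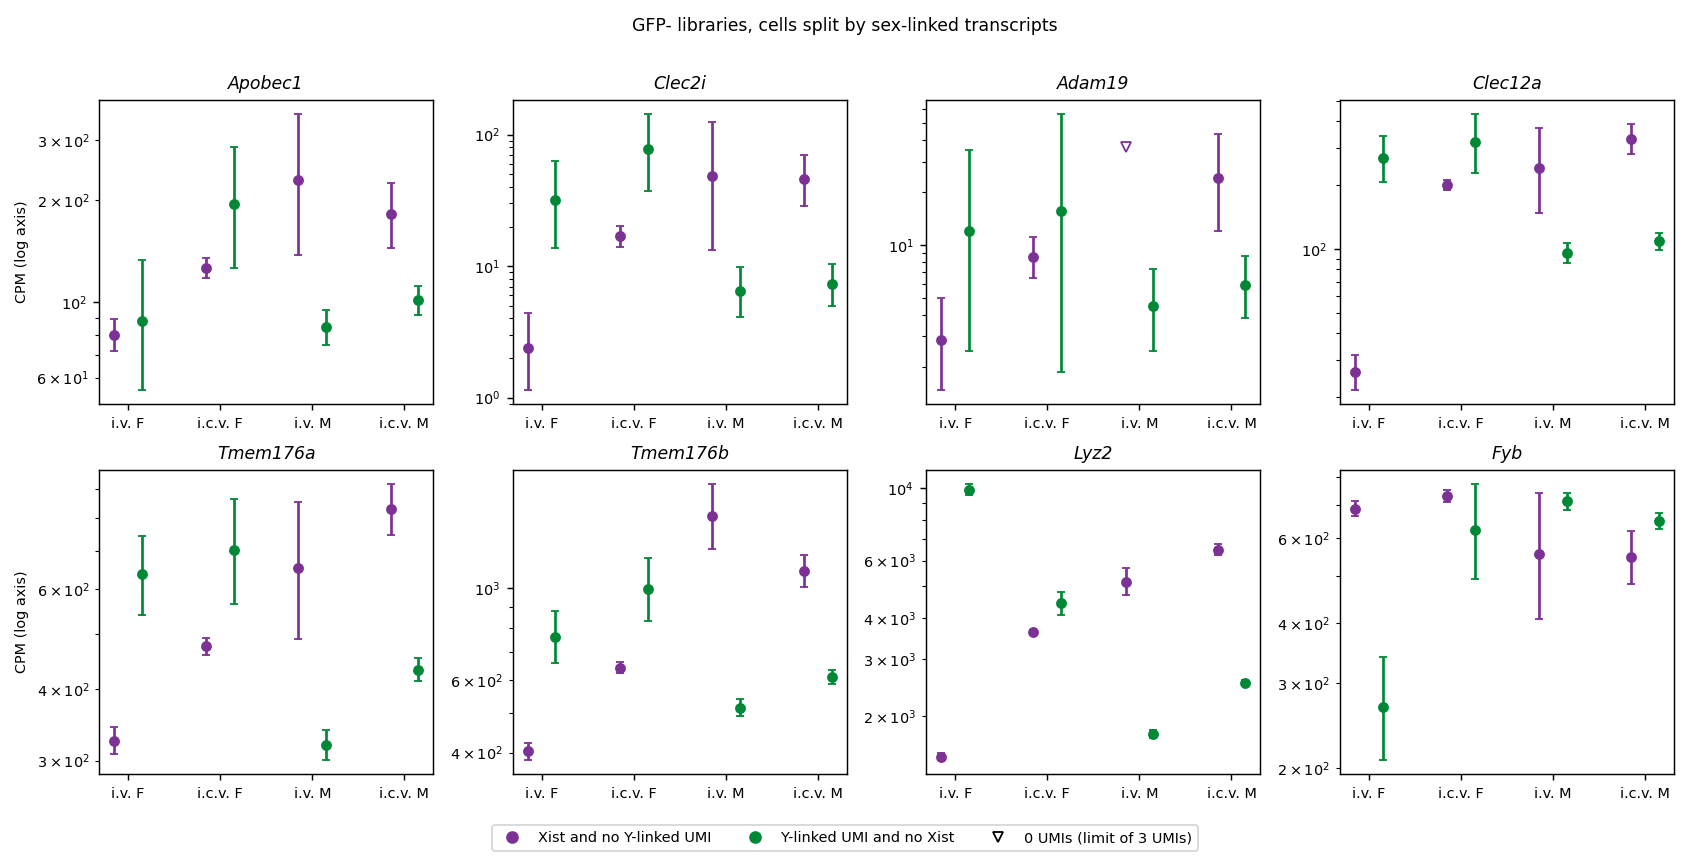
CPM of each gene (log axis, 95% Poisson intervals) in GFP- cells with Xist and no Y-linked UMI (purple) and with a Y-linked UMI and no Xist (green), per mouse (F, female; M, male). Clec12a is at 268 against 26.2 CPM in the i.v. female and at 331 against 108.5 CPM in the i.c.v. male, with the higher value in cells whose transcripts are of the sex opposite to the host, and an open triangle marks the limit where no UMI was found.

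Relatives and partners of the 8 genes were listed by family and tested between the sorts in edgeR, with p adjusted over all 12539 genes. Of these, 15.4% were called higher and 15.3% lower in GFP+ MLCs. The lists were made with earlier results of these data known, and the study had named Ms4a7 and Ms4a14 as enriched in MLCs. The calls are therefore not independent of the choice of the 8 genes. Of the MS4A relatives of the TMEM176 proteins 8 of 9 tested (of 17 listed) rose, with a median log2 difference of 1.70, against 0.00084 over all genes tested. Ms4a7, a marker of CAMs, was at 805 ± 123 CPM in GFP+ and 246 ± 111 in GFP- libraries (log2 difference 1.97, SE 0.34, adjusted p = 0.00437). Ms4a14 (2.10, SE 0.35, adjusted p = 0.00382) and Ms4a4c (2.03, SE 0.46, adjusted p = 0.0114) differed by more. The Ms4a4c difference itself differed between routes (interaction 2.33, SE 0.36, adjusted p = 0.0222), with 104.5 against 18.1 and 83.2 against 12.4 CPM in the i.v. female and male, and 27.2 against 25.4 and 36.6 against 19.2 in the i.c.v. female and male. The 1 not called, Ms4a8a, was at 0.865 against 0.332 CPM (adjusted p = 0.329). Ms4a7 was at 4.18 CPM and Ms4a14 at 0 UMIs in blood, whereas Ms4a4c was at 158.5 CPM there. Leaving out either i.v. GFP- library, either of their GFP+ libraries or the i.c.v. male GFP- library left 7 called, and the mouse as a replicate block left 6.

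Of the C-type lectins and NKR-P1 receptors, 5 of 19 tested (of 30 listed) were called higher, with a median log2 difference of 0.93. Clec2d, a ligand of NKR-P1 receptors like Clec2i, was at 103 ± 10.0 CPM in GFP+ and 54.0 ± 9.44 in GFP- libraries (1.21, SE 0.17, adjusted p = 0.00183). Clec4a2 (0.56, SE 0.155, adjusted p = 0.0244) and Klrk1 (2.76, SE 0.87, adjusted p = 0.0400), named after their values were seen, completed the 5. Cd69, an early activation receptor, differed by 1.26 (SE 0.39, adjusted p = 0.0387) and Clec4n, which encodes Dectin-2, by 1.185 (SE 0.28, adjusted p = 0.0139). For Cd69 and Klrk1 the interaction of sort and route was also called (2.28, adjusted p = 0.0186, and 4.095, adjusted p = 0.0336). Cd69 was at 37.3 against 9.25 and 35.4 against 8.43 CPM in the i.v. mice, but at 14.4 against 19.6 and 22.5 against 17.9 in the i.c.v. mice. Klrk1 was at 17.9 against 1.41 and 32.5 against 2.45 CPM in the i.v. mice, and at 1.36 against 2.71 and 3.67 against 3.34 in the i.c.v. mice. Leaving out any of the i.v. libraries or the i.c.v. male GFP- library left 2 called, as did the mouse as a replicate block, and leaving out the i.c.v. female GFP+ library gave 11. In GFP+ MLCs 6 of the 19 were called higher after i.v. than after i.c.v. dosing, where 2.56% of all 12539 genes tested were. Among the 6 was Clec4b1 with 60.9 and 71.8 CPM against 0.68 and 4.59. Over all genes the calls between routes in GFP+ MLCs fell from 347 to 56 without other cell types. They fell to 22 in the microglia class. Inpp5d, an inositol phosphatase that acts behind inhibitory receptors, was lower, at 245 ± 44.9 CPM in GFP+ against 459 ± 68.6 in GFP- libraries (-0.63, SE 0.13, adjusted p = 0.00877). It was the 1 of 3 phosphatases of inhibitory receptors that was called, a call lost when cells were thinned to 500 UMIs. Ptpn6 (0.28, SE 0.12, adjusted p = 0.116) and Ptpn11 (-0.03, SE 0.10, adjusted p = 0.840) were not called by edgeR.

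Of 18 partners of Fyb tested, 6 were called lower and 1 higher in GFP+ MLCs, with a median of -0.12. Itgam, the integrin chain of the CD11b antigen on which all these cells were sorted, was at 249 ± 102 against 585 ± 64.2 CPM (-0.97, SE 0.21, adjusted p = 0.0106). Apbb1ip, an integrin-activating adaptor, was at 199 ± 30.7 against 440.3 ± 61.7 CPM (-0.87, SE 0.12, adjusted p = 0.00183), and Nck1, an adaptor of receptor signaling, at 26.5 ± 4.21 against 46.4 ± 11.9 CPM (-0.52, SE 0.17, adjusted p = 0.0483). The 1 called higher, named after its value was seen, was Itgal, another integrin chain of leukocytes, at 19.2 against 8.00 CPM (1.49, SE 0.48, adjusted p = 0.0419). No partner was called higher with all deposited barcodes or without any 1 library other than the i.c.v. female GFP- library. Without either i.v. GFP- library, the i.v. male GFP+ library, the i.c.v. male GFP- library or the i.c.v. male GFP+ library 3 were called lower, and with the mouse as a replicate block 5.

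The remaining lists were those of the APOBEC family, the ADAM proteases and the lysozymes. Of the APOBEC family and editing partners 1 of 6 tested was called, Celf2, an RNA-binding protein, lower in GFP+ MLCs (231 ± 28.3 against 364 ± 38.9 CPM, -0.37, SE 0.11, adjusted p = 0.0339). This call was lost with all deposited barcodes, after thinning, and without the i.v. female or the i.c.v. male GFP- library. Of the ADAM proteases and their regulators, Adam9 was called higher (34.4 ± 6.73 against 29.7 ± 3.44 CPM, 0.47, SE 0.15, adjusted p = 0.0434) as was Adam22, named after its value was seen (12.8 against 6.21 CPM, 1.285, SE 0.21, adjusted p = 0.00376), and Adam15 lower (69.5 ± 5.42 against 154 ± 23.8 CPM, -0.87, SE 0.10, adjusted p = 0.000948), of 11 tested. Without either i.v. GFP- library, the i.v. male GFP+ library, the i.c.v. female GFP+ library or either library of the i.c.v. male 1 was called higher.

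Of the lysozymes and granule proteins 0 of 8 tested were called between the sorts in edgeR and by DESeq2, with 1 at an unadjusted p under 0.05. In the microglia class 3 of 7 were called lower in GFP+ MLCs, and 1 was without other cell types, after thinning or without the i.c.v. female GFP- library. Lyz1 was at 7.79 ± 10.1 against 4.29 ± 4.49 CPM. Between routes in GFP+ libraries 6 of these 8 were called higher after i.v. dosing, where 2.56% of all genes tested were. All 6 were neutrophil granule genes. S100a9 was at 765.5 and 1554 CPM after i.v. dosing against 0 in both i.c.v. libraries, and Camp at 91.4 and 225.0 against 0. In GFP- libraries S100a9 was at 2632.5 and 408 CPM after i.c.v. against 136 and 32.6 after i.v. dosing, and Camp at 504 and 124 against 0.40 and 0.92. These are sums over all kept cells of a library, not levels of microglia or MLCs alone. Cells with at least 3 neutrophil markers numbered 14 and 25 in the i.v. and 0 in each i.c.v. GFP+ library. In GFP- libraries they numbered 2 and 4 after i.v. and 24 and 15 after i.c.v. dosing. The mean level of Lyz2 was 7297 CPM after i.v. against 4192 after i.c.v. dosing in GFP+ libraries, and 1846 against 3091 in GFP- libraries. The log2 route difference of Lyz2 in GFP- cells of the microglia class alone was given above (-0.96). Whether neutrophil transcripts had a part in these Lyz2 levels was not tested.

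The genes with the most similar profile over the 12 libraries were sought for each of the 8 genes, by the root mean square difference of log2(CPM + 1) levels after each gene was centred on its own mean, among the 9668 genes with at least 20 CPM in a library. Tmem176a and Tmem176b were each nearest to the other (0.25). Clec12a was nearest to Ifi207 (0.38) and Ms4a6b (0.57), and Apobec1 to Fgl2 (0.44) and Ifi204 (0.47). Clec2i was nearest to Cmah (0.41) and Iqgap2 (0.41), Adam19 to Rell1 (0.48) and Rftn1 (0.51), and Fyb to Cd86 (0.32) and Neurl3 (0.34). The second neighbor of Tmem176a was Il10rb (0.52) and that of Tmem176b was Dab2 (0.495). Lyz2 had no close neighbor, with Cd52 at 1.03 and Fcer1g at 1.11. The middle gene lay at 1.29 for Adam19 to 4.48 for Lyz2. The profiles rest on 12 libraries of which 8 share 4 mice, and no p is given.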

How the data were processed

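The authors deposited raw counts, which are unique molecular identifiers (UMIs) per gene and barcode of 10x Genomics 3-prime libraries, made per the file headers with Cell Ranger 3.1.0. The mouse build is mm10 (GRCm38) per the labels. All 12 libraries were used. A barcode was used if it had 200 or more genes and no more than 10% of UMIs from mitochondrial genes (84.46% to 93.93% of those of the treated libraries, 13.64% of blood, 23.0% of the neuron sort, 45.84% of astrocytes and 50.96% of naive microglia), and UMIs were summed per library, because cells are not replicates. No doublet caller was run. Levels are CPM of these sums, and Poisson and exact binomial intervals and the limit of 3 UMIs for a count of 0 cover counting error only.

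The members and gene lists were chosen with earlier results of these data known. Sums of the 8 treated libraries were tested with edgeR 4.0.16 (R 4.3.3), with TMM factors, its default filter on low counts by route and sort, quasi-likelihood F-tests, and Benjamini-Hochberg adjustment over all genes at 0.05. The sort comparison had sort as its only term, and the route and interaction comparisons were contrasts of 1 fit with 4 groups of route and sort. The script was tested on simulated data. Genes named besides the 8 members were, per list and direction, up to 3 called genes with the largest difference and a higher group mean of 20 CPM or more, and the 2 genes nearest to each member by profile. Exceptions include Ms4a8a, Lyz1, P2ry12 and Malat1, besides those marked in the text. Marker classes needed at least 3 detected markers of their own list and fewer of any other. For shares, 500 UMIs were drawn per cell.

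The replicate numbers of the labels pair both sorts of the same mouse. Deviations of each library from the mean of its sort, which still hold the route difference, were correlated across genes. The correlation was 0.137, -0.251, -0.310 and 0.0017 for libraries of the same mouse. It ran from -0.455 to 0.407 for libraries of different mice. Each sort and route held 1 female and 1 male mouse. Alternatives were DESeq2 1.42.0, upper-quartile factors, no filter, all barcodes, a stricter filter, thinning of every cell to 500 UMIs, no cells of other types, recipient sex or mouse as a term, 1 sort alone, and each library left out. Leaving out shared barcodes or cells with transcripts of the opposite sex (GFP- libraries only), and the microglia class alone, were chosen after seeing the data. Tables were computed with Python 3.11.15. Promoter sequences came from RefSeq (GRCm38.p6).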

Additional observations from a re-analysis of the deposited data

Results flagged for a closer look

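Fyb was the 1 gene of the 8 whose ratio between the sorts had opposite signs by route in every mouse. Its log2 CPM ratio of GFP+ over GFP- cells was -0.16 in both i.v. mice and 0.08 and 0.21 in the i.c.v. female and male, and the mean ratios differed by -0.30 (i.v. minus i.c.v.). The difference of these CPM ratios was not tested as such. The interaction of sort and route in the edgeR fit was -0.08 (SE 0.20, Benjamini-Hochberg adjusted p = 0.877), and after TMM scaling the ratio was positive in all 4 mice.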

How the results depend on the processing

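All 8 genes kept a negative route difference in GFP- microglia under all 20 alternatives. Among GFP+ MLCs 7 of the 8 had a positive difference, and 3 to 7 did when 1 library was left out. With 1 library left out the difference ran from -0.063 to 0.14 for Apobec1, -0.019 to 0.29 for Clec2i, -0.042 to 0.57 for Clec12a, -0.019 to 0.44 for Tmem176a and -0.012 to 0.32 for Tmem176b, 0.019 to 0.58 for Adam19, 0.48 to 1.47 for Lyz2 and -0.30 to -0.099 for Fyb. It turned negative for Apobec1 (-0.036) and Clec2i without the i.v. female GFP+ library, and for Apobec1, Clec12a, Tmem176a and Tmem176b without the i.c.v. female GFP+ library. The Fyb interaction turned positive without other cell types (0.057), after thinning (0.022) and in the microglia class (0.027), and ran from -0.18 to 0.018 with 1 library left out. With no filter on low counts edgeR called the interaction of Clec12a (adjusted p = 0.00995), Lyz2 (0.0120), Clec2i (0.0195) and Adam19 (0.0262), and without the i.c.v. male GFP- library that of Clec2i (adjusted p = 0.0422).

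Over all genes, 3852 were called between sorts, 1328 after thinning and 2118 to 3744 with 1 library left out. Between routes in GFP+ cells 347 were called, 56 without other cell types, 84 after thinning, 22 in the microglia class, 526 by DESeq2, 679 without the filter and 42 to 292 with 1 library left out. Between routes in GFP- cells 0 were called, 3 after thinning, 68 by DESeq2, 83 without the filter, 4 with that sort alone and 0 to 23 with 1 library left out. The interaction called 242 genes, 142 with the stricter filter, 16 without other cell types, 82 after thinning, 12 in the microglia class, 598 by DESeq2, 698 without the filter, 412 with recipient sex and 41 to 239 with 1 library left out. With the mouse as a replicate block, which pairs the sorts, it called 676, and the block changed no interaction call of the 8 genes. Of the list genes 16 were called higher and 9 lower, 14 lower in the microglia class, and 10 to 20 higher and 5 to 10 lower with 1 library left out. The causes were not tested. Adam19 and Clec2i rest on 18 to 135 UMIs per GFP- library, which limits their precision. The levels in GFP- cells of females with a Y-linked UMI also depended on the setting. Those of 2 of the 8 genes moved in the i.v. female and those of 3 of the 8 in the i.c.v. female.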
